A study of Mus musculus with 40 samples.

Results

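The transcripts described here are those of the mitochondrial genome, the small circular DNA inside mitochondria, in female 3xTg-AD mice given repeated mild head injuries, measured in tissue of the left somatomotor cortex. The members were the features of the deposited count table whose gene name starts with mt-, and 37 of the 55539 features met that rule. They comprise 13 protein-coding genes, 2 ribosomal RNA genes and 22 transfer RNA genes. Members were chosen by name, and the counts selected on were only those that decide which members are too low to test. The 13 protein-coding and 2 rRNA members passed the filter on low counts and the 22 tRNA members did not.

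The 3xTg-AD mouse is a model of Alzheimer's disease that carries human APP and MAPT transgenes driven by the neuronal Thy1 promoter. All 39 samples used, controls included, came from females of this genotype, aged 2 to 4 months at the time of injury. Mice received a weight-drop closed head injury (CHI) under isoflurane once a day, to a total of 1, 2, 3, 4 or 5 injuries, and cortex was taken 0.5, 4 or 24 h after the last injury. Sham mice (n = 4) had the anesthesia without the weight drop, and the study pooled shams with different numbers of anesthesia exposures. The injured groups were 1xCHI at 0.5 h (n = 3), 4 h (n = 3) and 24 h (n = 4), 2xCHI at 24 h (n = 3), 3xCHI at 0.5 h (n = 3), 4 h (n = 2) and 24 h (n = 4), 4xCHI at 24 h (n = 3), and 5xCHI at 0.5 h (n = 3), 4 h (n = 3) and 24 h (n = 4). A 40th sample, 3xCHI 4 h replicate 30, was left out because the study removed its mouse as an outlier in protein data.

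Mitochondrial DNA is transcribed as long RNAs from both strands, and excision of the tRNAs that lie between most genes releases the rRNAs and mRNAs. The mRNAs encode subunits of respiratory complex I, complex III, complex IV and the ATP synthase, whose remaining subunits come from nuclear genes. In neurons these complexes supply most of the ATP used for ion pumping and synaptic transmission. Copies of mitochondrial DNA have also been inserted into nuclear chromosomes over evolution, and where such a copy is nearly identical, a sequencing read cannot always be assigned to either.

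That last point sets what the counts of several members mean, so the sequences are given first. A stretch of 4663 bases on the minus strand of chromosome 1, chr1:24611535-24616197 in GRCm38, matches chrM:6381-11042 and holds 7 annotated features. These features copy the end of mt-Co1 (Gm29216), mt-Co2 (Gm28661), mt-Atp6 (Gm10925), mt-Co3 (Gm28437), mt-Nd3 (Gm28438), mt-Nd4l (Gm10222) and the first 876 bases of mt-Nd4 (Gm28439). Over the aligned bases, Gm28661, Gm10925, Gm28437, Gm10222 and Gm28439 had 0 differences from their member. Gm29216 differed at 6 of 492 bases, all near its start, and Gm28438 at 1 of 345. The stretches with those differences are shown 5′ to 3′, on the plus strand of chrM and the minus strand of chromosome 1, with the differing bases in capitals. They cover mt-Co1 at chrM:6381-6460, Gm29216 at chr1:24616118-24616197, mt-Nd3 at chrM:9459-9518 and Gm28438 at chr1:24613060-24613119.
mt-Co1: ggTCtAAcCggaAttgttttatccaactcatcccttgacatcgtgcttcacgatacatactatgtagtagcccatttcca
Gm29216: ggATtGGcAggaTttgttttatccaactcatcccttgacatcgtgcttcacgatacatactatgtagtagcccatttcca
mt-Nd3: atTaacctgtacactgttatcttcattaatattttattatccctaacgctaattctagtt
Gm28438: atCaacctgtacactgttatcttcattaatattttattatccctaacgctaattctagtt
Counted from the first base of each member, with the base of the member written first, the differences were T1056A, C1057T, A1059G, A1060G, C1062A and A1066T in mt-Co1 and T3C in mt-Nd3. A read that misses these positions fits the member and its copy equally. A second copy of mt-Co1, Gm13340 on chromosome 2, differed at 37 of 1545 bases, and the first 100 bases of each (chrM:5328-5427, and chr2:22589548-22589647 on the minus strand) show how such differences are spaced.
mt-Co1: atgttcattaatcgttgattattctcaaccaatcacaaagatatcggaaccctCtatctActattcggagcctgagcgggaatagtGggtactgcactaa
Gm13340: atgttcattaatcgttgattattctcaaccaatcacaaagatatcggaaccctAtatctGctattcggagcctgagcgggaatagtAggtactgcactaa

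Members also overlap each other on chrM. mt-Atp8 and mt-Atp6 share 43 bases on the same strand, mt-Nd4l and mt-Nd4 share 7 bases on the same strand, and mt-Nd5 and mt-Nd6 share 14 bases on opposite strands. The ends of mt-Atp8 (chrM:7900-7969), mt-Nd4l (chrM:10134-10173) and mt-Nd5 (chrM:13516-13565) are printed on the plus strand with the shared bases in capitals.
mt-Atp8: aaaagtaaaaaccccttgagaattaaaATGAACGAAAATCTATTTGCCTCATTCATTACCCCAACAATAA
mt-Nd4l: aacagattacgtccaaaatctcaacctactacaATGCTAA
mt-Nd5: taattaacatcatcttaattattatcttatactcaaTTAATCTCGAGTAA
Whether reads were counted by strand is not given in the sources used here, so reads over the mt-Nd5 and mt-Nd6 overlap cannot be told apart. The annotated overlap is a small part of both genes, which span 1824 and 519 bases. As both strands give long RNAs, reads over the rest of either gene could also come from the opposite strand. How many did was not tested.

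The files hold estimated counts per feature, with totals of 15926014 to 27859547 per sample (median 19028778). All 46 pairs of replicates within a group differed by more than sampling noise. The 95% Wilson interval of a sample's mitochondrial share reached at most 0.0133 percentage points to either side, which covers counting error only and is small beside the spread between mice. The labels give each mouse as a separate sample, so p-values measure the spread between mice. The cortical marker genes used here were present in the 39 samples, at 1171 ± 91.4 CPM (a feature's counts scaled to a sample total of 1000000, mean ± SD) for Slc17a7, the vesicular glutamate transporter of cortical excitatory neurons, and 134 ± 13.5 CPM for Tbr1, a transcription factor of deep-layer cortical neurons.

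The members together took 7.19% ± 1.17 of all counts (SD, n = 39), ranging from 5.72% to 10.3%. In Sham the shares were 6.32%, 6.89%, 6.09% and 6.12% for replicates 6, 20, 35 and 39. After a first injury they were 10.3%, 10.1% and 7.10% at 0.5 h, 9.83%, 8.99% and 6.25% at 4 h, and 8.19%, 8.27%, 6.63% and 8.41% at 24 h. The 4 highest shares of the series were all from 1xCHI at 0.5 or 4 h, while the other replicate at 0.5 h, 27, was just above the highest Sham sample and that at 4 h, 36, was inside the Sham range. After repeated injuries the shares were nearer to those of Sham. They were 6.20%, 7.84% and 7.39% in 2xCHI and 5.72%, 6.60% and 6.35% in 4xCHI. In 3xCHI they ran from 5.87% to 7.44% with a median of 6.96% (n = 9), and in 5xCHI from 6.01% to 8.47% with a median of 7.08% (n = 10). These groups overlapped with Sham and with 1xCHI.

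**Figure D1:**
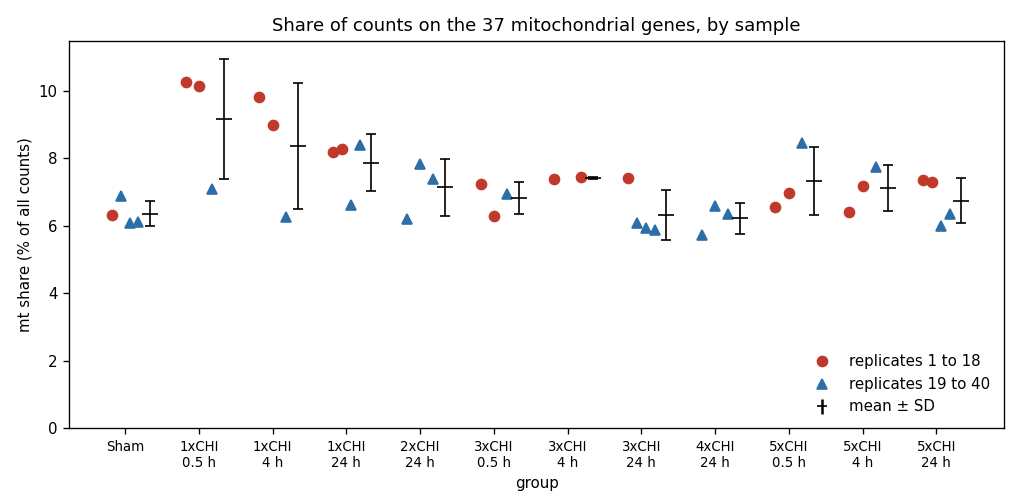
Share of all counts on the 37 mitochondrial genome features (percent, vertical axis) in each of the 39 samples, by group in order of injury number and time after the last injury. Circles are samples with study numbers of 1 to 18, triangles those of 19 to 40, and black marks give mean ± SD. Group means run from 6.22% in 4xCHI at 24 h and 6.36% in Sham to 9.17% in 1xCHI at 0.5 h.

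Averaged over times, the share was 8.41% ± 1.43 in 1xCHI (n = 10) against 6.36% ± 0.371 in Sham (n = 4), a difference of 2.05 percentage points. All 10 1xCHI samples lay above the Sham median and 8 above every Sham sample. The exact two-sided permutation test gave p = 0.0140, and 0.0699 after Benjamini-Hochberg adjustment over the 5 injury numbers, so the difference did not pass 0.05. It passed when only the protein-coding members were counted (7.11% ± 1.09 against 5.44% ± 0.249, adjusted exact permutation p = 0.0400) and with the nuclear copies added to the members (2.43 points, adjusted 0.04995). In 5xCHI the share was higher than in Sham by 0.681 points (exact permutation p = 0.0879, adjusted 0.220), with 9 of 10 samples above the Sham median. The differences were 0.790 points in 2xCHI (exact permutation p = 0.171, adjusted 0.286, where 0.0571 is the smallest p that 3 against 4 samples allow), 0.380 points in 3xCHI (exact permutation p = 0.310, adjusted 0.388) and -0.134 points in 4xCHI (exact permutation p = 0.686, adjusted 0.686). All 5 comparisons share the 4 Sham samples. In bulk tissue, a change in the number of cells of a type and a change in the RNA per cell cannot be told apart.

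The 1xCHI samples fell into 2 ranges of the study's sample number. The 6 with numbers of 1 to 18 had shares of 8.19% to 10.3% (mean 9.28%), and the 4 with numbers of 19 to 40 had 6.25% to 8.41% (mean 7.10%). Of the Sham samples, 1 (6.32%) had a number of 1 to 18 and 3 had numbers of 19 to 40. This division was chosen after a principal component of earlier work on these data was seen, and the labels name no batch. With numbers of 19 to 40 alone, 1xCHI exceeded Sham by 0.731 points (exact permutation p = 0.286, smallest possible 0.0571), 2xCHI by 0.778 points (exact permutation p = 0.200) and 5xCHI by 0.776 points (exact permutation p = 0.400), while 3xCHI differed by -0.160 points (exact permutation p = 0.514) and 4xCHI by -0.146 points (exact permutation p = 0.700). With numbers of 1 to 18, 1 Sham sample allows no test of the group. In that range the 5 3xCHI samples held 6.29% to 7.44% and the 6 5xCHI samples 6.41% to 7.35%, below all 6 1xCHI samples. With the sample number, or its range, as a covariate in edgeR, the median log2 difference of the tested members in 1xCHI was 0.44 or 0.40. The share was not related to a sample's total count over the 39 samples (Pearson's r = 0.0183, permutation p = 0.913, Spearman's rho = -0.0719, permutation p = 0.660). Without the 2 samples of most extreme total, Sham replicate 20 and 3xCHI 24 h replicate 38, r was 0.139. Within numbers of 1 to 18, r was 0.488 (permutation p = 0.0397, adjusted over 3 relations 0.119), and within 19 to 40 it was -0.165 (permutation p = 0.475, adjusted 0.712).

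Levels were compared between members per length, first with the counts assigned to each member alone. The study's methods do not say how RNA was selected for the libraries. The order of members, and of rRNA against mRNA, therefore describes counts and not amounts of RNA in the tissue. On that count mt-Co1, the catalytic subunit of complex IV, had the highest level, 12016 ± 1714 CPM per kb (SD, n = 39), and it carried 25.9% of all mitochondrial counts. mt-Co2, the copper-carrying subunit that takes electrons from cytochrome c, followed at 7166 ± 1140 CPM per kb. Then came mt-Nd1, a membrane subunit of complex I near its quinone site, at 6816 ± 1054, mt-Atp6, the proton channel subunit of the ATP synthase, at 6427 ± 1115, mt-Cytb, the cytochrome b of complex III, at 6184 ± 1090, and mt-Co3 at 6180 ± 1056 CPM per kb. mt-Cytb exceeded mt-Co3 in 24 of 39 samples, with a ratio of 1.00 ± 0.0485, so on these counts the neighbours did not differ beyond their spread. The complex I gene mt-Nd4 and both rRNA genes sat in the middle, mt-Nd4 at 4431 ± 701, mt-Rnr2 at 4400 ± 975 and mt-Rnr1 at 4298 ± 1002 CPM per kb, and mt-Nd4 exceeded mt-Rnr2 in 20 of 39 samples. mt-Nd2 had 3891 ± 663, mt-Atp8 2478 ± 504, mt-Nd5 1668 ± 289, mt-Nd3 1494 ± 238 and mt-Nd4l 1097 ± 228 CPM per kb. mt-Nd6, the only protein-coding member on the minus strand as annotated here, stood lowest at 115 ± 19.2 CPM per kb, and mt-Nd4l exceeded it 9.56 ± 1.61 times on this scale. Its counts, 780 to 1861 per sample, left it well above the filter. On these counts the order of neighbours held in all 39 samples for mt-Co1 over mt-Co2, mt-Co3 over mt-Nd4, mt-Nd2 over mt-Atp8, mt-Nd3 over mt-Nd4l and mt-Nd4l over mt-Nd6. The order depends on how counts were split with the chromosome 1 copies. With the counts of its copy added to each of the 7 members that have one, an alternative chosen after seeing the data, mt-Co1 had 12575 ± 1797 CPM per kb, mt-Co2 12057 ± 1966, mt-Atp6 11755 ± 1901 and mt-Co3 10924 ± 1913. mt-Co1 then exceeded mt-Co2 in 36 of 39 samples, with mt-Co2 higher in replicates 11, 17 and 25, and mt-Co2 exceeded mt-Atp6 in 29 of 39. mt-Co3 was 1.77 ± 0.0922 times mt-Cytb per length on the summed counts and higher in all 39 samples. mt-Nd3 and mt-Nd4l stood at 2450 ± 397 and 1785 ± 370 CPM per kb, so mt-Nd4l lay above mt-Nd5 in 34 of 39 samples, where it was below it on its own counts by their means. mt-Nd6 was lowest under both counts.

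**Figure D2:**
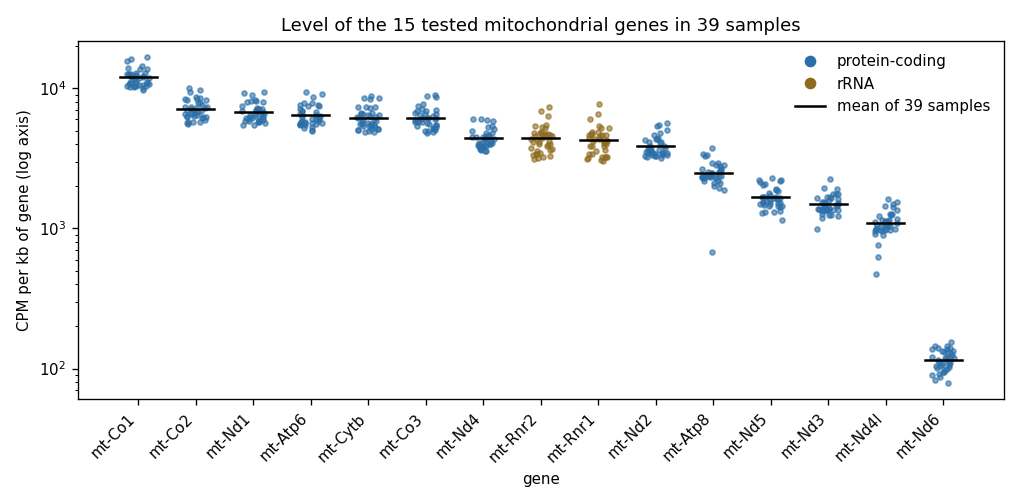
Level per length (CPM per kb, log axis) of the 13 protein-coding and 2 rRNA members over the 39 samples, in order of their means. Points are samples, black lines means, and counts assigned to the copies are left out, and the means run from 12016 CPM per kb for mt-Co1 to 115 for mt-Nd6.

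The 22 tRNA genes were too low for any comparison. Together they drew 126 counts over the 39 samples, 0.000224% of the 56150029 mitochondrial counts, and no tRNA had more than 7 counts in a sample. Counts above 0 occurred for 16 of them, with mt-Tm, the methionine tRNA, leading at 45 counts in 22 samples. Next were mt-Tv with 15 counts in 11 samples, mt-Th with 12 in 9, mt-Tl1 with 11 in 7 and mt-Tn with 10 in 6. mt-Tf, mt-Ts1, mt-Td, mt-Tk, mt-Ts2 and mt-Tt were at 0 in all 39 samples. A count of 0 allows up to 3 counts, here 0.108 to 0.188 CPM depending on the sample, for counting error only. The tRNA genes span 59 to 75 bases, and mt-Tm (chrM:3845-3913, plus strand) is printed in full as the member of this class with the most counts.
mt-Tm: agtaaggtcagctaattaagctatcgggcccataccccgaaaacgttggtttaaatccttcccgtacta
The labels and the study's methods name different RNA extraction kits, RNeasy and miRNeasy Micro, and such kits differ in how much RNA as short as tRNA they keep. Why the counts are low was not tested, and they are not taken as a measure of mature tRNA in these mice. The tRNAs are not compared between groups, apart from an alternative fit without the filter.

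Most of the long members moved together across samples. On the log2 scale the CPM of mt-Nd1, mt-Co1, mt-Cytb and mt-Co3 had correlations of 0.988, 0.983, 0.982 and 0.980 with the total mitochondrial share over 39 samples. mt-Rnr2 and mt-Rnr1 had 0.940 and 0.928, mt-Nd5 0.781 and mt-Nd6 0.552. The lowest values were 0.446 for mt-Nd4l and 0.427 for mt-Atp8. Both rest in part on Sham replicate 20. Without it, over 38 samples, they were 0.527 for mt-Nd4l and 0.679 for mt-Atp8, with mt-Nd6 at 0.578 and mt-Nd5 at 0.781. Members are part of the share, and all of these points share libraries and a total, so the values are descriptions. Over all pairs of the 15 members the median correlation was 0.825, the highest 0.988, and the lowest 0.208, between mt-Nd4l and mt-Rnr2. The coefficient of variation over samples ran from 14.3% for mt-Co1 to 23.3% for mt-Rnr1. The ratio of mt-Rnr1 to mt-Rnr2, the 12S and 16S rRNAs of the mitochondrial ribosome that leave the same precursor, varied little, at 0.589 ± 0.0201.

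**Figure D3:**
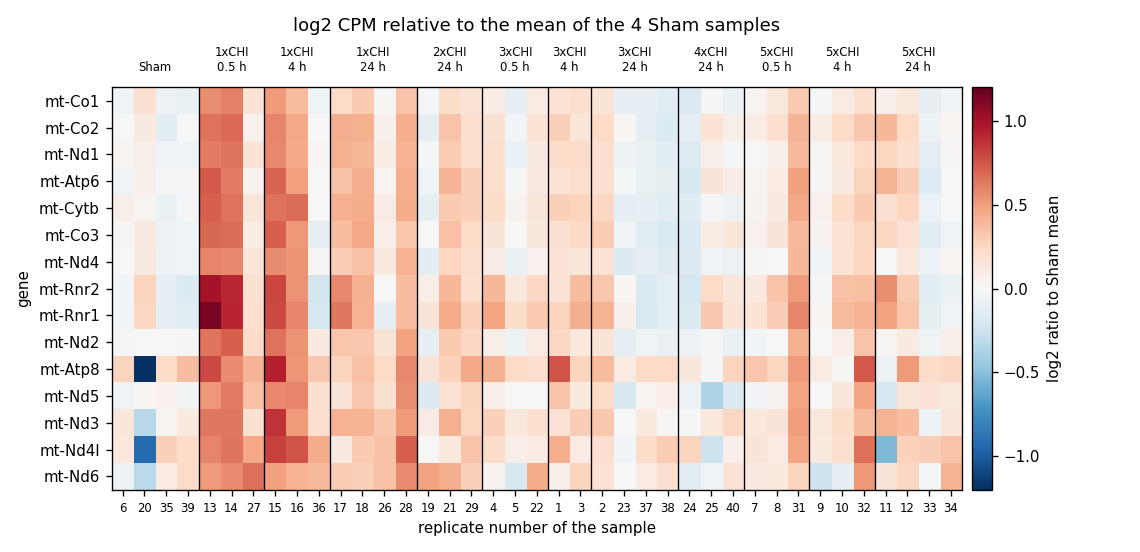
log2 ratio of the CPM of each of the 15 tested members (lines) in each of the 39 samples (columns, by group and replicate number) to the mean of that member over the 4 Sham samples. Colours saturate beyond the ends of the scale at 1.2 in either direction, and most 1xCHI columns are on the higher side for nearly all members.

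Does a first injury go with a different level of these transcripts than in Sham? All 15 tested members were higher in 1xCHI than in Sham, by 0.34 to 0.55 on the log2 scale (median 0.45), while the median over all 15224 features tested was 0.01. No member passed edgeR's quasi-likelihood test after Benjamini-Hochberg adjustment over all features (adjusted p 0.210 to 0.232). Without adjustment all 15 had p below 0.05 in the higher direction, where 10.9% of all features did. DESeq2 called 6 of them, mt-Nd1, mt-Nd2, mt-Nd3, mt-Nd4, mt-Nd6 and mt-Cytb, where it called 24 features (0.158%) in all. Without Sham replicate 20, whose counts of several short members were low, the range was 0.24 to 0.63, the median 0.43, and 14 of 15 had an unadjusted p below 0.05 in the higher direction, as did 9.48% of all features in that fit. The share of all features lower at an unadjusted edgeR p below 0.05 was 6.33%, and 0 members were among them. Comparisons by sample are given next in CPM, by complex.

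Complex I, the NADH dehydrogenase, has 7 members here. mt-Nd2, a membrane-arm subunit, had 3559, 3575, 3608 and 3629 CPM in Sham and 3905 to 5923 in 1xCHI (median 4771), with a log2 difference of 0.45 ± 0.11 (SE, edgeR adjusted p = 0.210). mt-Nd3, a small membrane subunit, had 476, 343, 442 and 470 CPM in Sham and 491 to 788 in 1xCHI (median 597), a difference of 0.50 ± 0.11 (edgeR adjusted p = 0.210), the smallest unadjusted p of the 15. For both genes, and for mt-Nd5 and mt-Nd6, all 10 1xCHI samples lay above all 4 Sham samples. Such a gap in the higher direction occurred for 4 of the 15 tested members and for 0.171% of all features tested. mt-Nd5, a proton-pumping subunit at the far end of the membrane arm, had 2637, 2753, 2810 and 2643 CPM in Sham and 3014 to 4182 in 1xCHI (median 3673), and mt-Nd6 had 48.8, 40.9, 54.5 and 59.97 CPM in Sham and 62.2 to 80.5 in 1xCHI (median 70.03). Their differences were 0.43 ± 0.11 (edgeR adjusted p = 0.215) and 0.48 ± 0.12 (adjusted p = 0.210). For mt-Nd1, mt-Nd4 and mt-Nd4l, 9 of 10 1xCHI samples exceeded every Sham sample, and the differences were 0.41 ± 0.10, 0.39 ± 0.10 and 0.55 ± 0.17. mt-Nd4l in Sham replicate 20 stood at 142 CPM, against 295, 331 and 315 in the others. Without that sample its difference was 0.33 (edgeR adjusted p = 0.302).

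mt-Cytb, the only complex III subunit encoded in mitochondria, had 6473, 6293, 5832 and 6073 CPM in Sham and 6198 to 10111 in 1xCHI (median 8388). The groups overlapped in 1 sample of 1xCHI, and the log2 difference was 0.46 ± 0.12 (edgeR adjusted p = 0.210). Among the complex IV genes, mt-Co1 had 16516, 19435, 16249 and 16066 CPM in Sham and 16457 to 25914 in 1xCHI (median 21417), a difference of 0.34 ± 0.10. mt-Co2 and mt-Co3 differed by 0.42 ± 0.11 and 0.43 ± 0.12. For each of the 3, 7 of 10 1xCHI samples exceeded every Sham sample. mt-Atp6 differed by 0.43 ± 0.12, again with 7 of 10 samples above Sham. mt-Atp8, a short membrane subunit of the ATP synthase, had 483, 138, 470 and 520 CPM in Sham and 476 to 767 in 1xCHI (median 559). Its difference of 0.53 ± 0.19 (edgeR adjusted p = 0.232) became 0.24 (adjusted p = 0.362) without Sham replicate 20, the sample at 138 CPM, and was then no longer below 0.05 before adjustment.

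The rRNAs differed as much as the mRNAs in 1xCHI and spread more. mt-Rnr1 had 3272, 3956, 3086 and 3034 CPM in Sham and 2889 to 7356 in 1xCHI (median 4726), a log2 difference of 0.55 ± 0.17 (edgeR adjusted p = 0.221). mt-Rnr2 had 5655, 6977, 5368 and 5191 CPM in Sham and 4979 to 11555 in 1xCHI (median 8115), a difference of 0.53 ± 0.16 (edgeR adjusted p = 0.221). The lowest 1xCHI sample for both, 4 h replicate 36, lay below all 4 Sham samples. The ratio of rRNA to protein-coding counts was 0.167 ± 0.0147 in Sham and 0.181 ± 0.0251 in 1xCHI, within their spread. At 0.5 h after the first injury it was 0.226, 0.203 and 0.172.

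**Figure D4:**
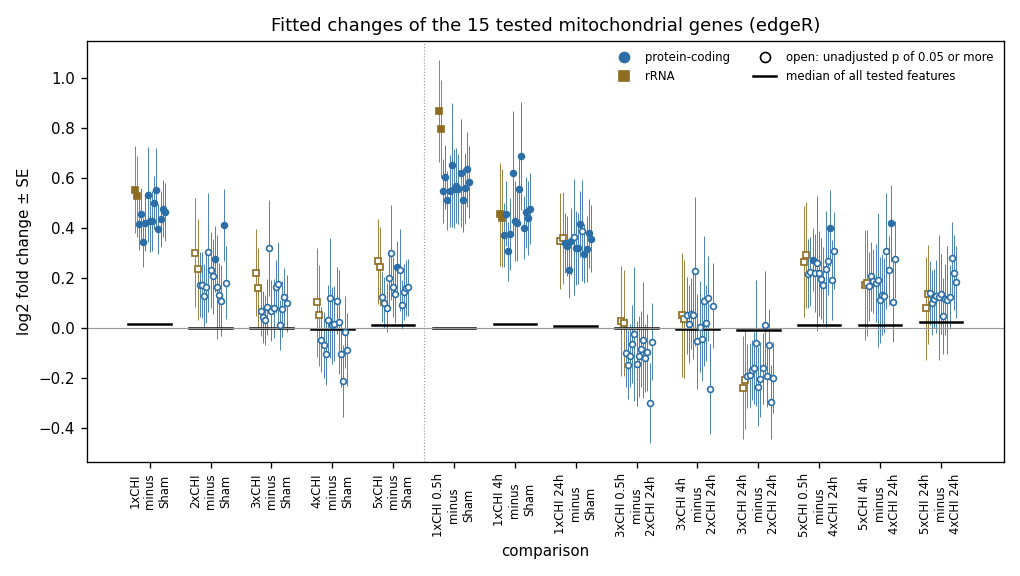
log2 fold change (vertical axis, edgeR estimate, error bars ± SE) of the 15 tested members in the 14 comparisons, those by injury number left of the dotted line and those by time right of it. Circles are protein-coding and squares rRNA members, open symbols have an unadjusted p of 0.05 or more, and black lines give the median of all features. The 1xCHI points run from 0.34 to 0.55 and those of 4xCHI from -0.21 to 0.12.

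By time after the first injury, the median difference from Sham was largest at 0.5 h. All 15 members were higher there, by 0.51 to 0.87 on the log2 scale (median 0.57), 0 of 15 passed edgeR's test after adjustment (adjusted p 0.167 to 0.190), and all 15 had an unadjusted p below 0.05 where 13% of all features did in that direction and 6.71% in the lower direction. DESeq2 called 8 members at this time, mt-Rnr1, mt-Rnr2, mt-Nd1, mt-Nd2, mt-Co1, mt-Nd4, mt-Nd6 and mt-Cytb, of 28 features (0.184%) in all. mt-Rnr1 and mt-Rnr2 had the largest differences, 0.87 ± 0.21 and 0.80 ± 0.20, from CPM of 7356, 6291 and 3846 and of 11555, 10822 and 6563. Replicate 27 was the lowest of its group for every tested member except mt-Nd6, where it was the highest at 80.5 CPM. Without it the median difference at 0.5 h was 0.74 and all 15 members passed the adjusted edgeR test, as 23.7% of all features then did. With Sham replicate 20 left out instead, the difference of mt-Atp8, 0.65, became 0.36 and that of mt-Nd4l, 0.62, became 0.40.

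At 4 h the 15 members were higher than in Sham by 0.30 to 0.69 (median 0.44), and all had an unadjusted p below 0.05, against 6.96% of all features (3.57% lower). None passed the adjusted edgeR test (0.252 to 0.446) or DESeq2's, and without replicate 36, whose share of 6.25% lay inside the Sham range, 9 passed edgeR's, as did 3.8% of all features. The difference of mt-Nd4l at 4 h, 0.69 ± 0.22, became 0.45 without Sham replicate 20, and that of mt-Atp8, 0.62 ± 0.25, became 0.32. At 24 h the differences were 0.23 to 0.41 (median 0.35), with 11 of 15 at an unadjusted p below 0.05 against 3.55% of all features (2.47% lower), and 0 called after adjustment by edgeR (adjusted p = 0.703) or DESeq2. The 4 without an unadjusted p below 0.05 at 24 h were both rRNAs, mt-Atp8 and mt-Nd4l. Without Sham replicate 20, mt-Atp8 and mt-Nd4l differed by 0.07 and 0.17, and mt-Rnr1 and mt-Rnr2 by 0.43 and 0.45. Both rRNAs were then below 0.05 before adjustment, and mt-Nd6 (0.27) was not. The edgeR adjusted p of both rRNAs and of mt-Nd6 was 0.694. The decline in the median from 0.5 to 24 h after the first injury was not itself tested. In the edgeR test for any difference between 0.5, 4 and 24 h, with injury numbers combined, mt-Rnr1 had the smallest p (adjusted p = 0.820), and it was the 1 member of 15 below 0.05 before adjustment, where 5.85% of all features were. 25 features of all 15224 (0.164%) passed that test after adjustment, and 0 of them were members, by edgeR or by DESeq2.

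After later injuries the fitted differences from Sham were smaller, and edgeR and DESeq2 called 0 of 15 at each of 2xCHI, 3xCHI, 4xCHI and 5xCHI. In 2xCHI all 15 were higher by 0.11 to 0.41 (median 0.18), and mt-Nd3 (0.27 ± 0.13) and mt-Nd6 (0.41 ± 0.14) had unadjusted edgeR p below 0.05 (adjusted p = 0.943 for both), against 2.33% of all features in that direction and 2.12% in the lower. mt-Nd6 in 2xCHI had 71.1, 69.2 and 62.4 CPM, above all 4 Sham samples, as 4.04% of all features were. In 3xCHI the differences ran from 0.01 to 0.32 (median 0.08), with 0 at an unadjusted p below 0.05, against 2.26% of all features in the higher and 1.6% in the lower direction. In 4xCHI 8 members were higher and 7 lower, by -0.21 to 0.12 (median 0.01), with 0 at an unadjusted p below 0.05, against 0.663% higher and 1.04% lower. mt-Nd5 in 4xCHI had 2586, 2096 and 2404 CPM, all below the 4 Sham samples, as 2.45% of all features were. Its log2 difference was -0.21 ± 0.14 (edgeR adjusted p = 0.9998). In 5xCHI all 15 were higher by 0.08 to 0.30 (median 0.16), and only mt-Nd3, at 0.24 ± 0.10, had an unadjusted edgeR p below 0.05 (adjusted p = 0.405), where 7.51% of all features did and 4.07% were lower. Without Sham replicate 20, mt-Nd3 was no longer below 0.05 before adjustment in 2xCHI (0.17) or 5xCHI (0.14). mt-Atp8 then differed from Sham by 0.01, 0.03, -0.16 and 0.01 in 2xCHI, 3xCHI, 4xCHI and 5xCHI, and mt-Nd4l by -0.06, -0.04, -0.18 and 0.01.

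The 3xCHI and 5xCHI groups were also set against the groups that preceded their last injury, 2xCHI and 4xCHI at 24 h. In 3xCHI 0 of 15 members passed at 0.5, 4 or 24 h, adjusted or not, by edgeR, and 0 by DESeq2. The shares of all features at an unadjusted p below 0.05 were 1.16%, 1.04% and 2.44% in the higher direction and 0.716%, 0.952% and 2.13% in the lower. The median differences were -0.10, 0.05 and -0.19. In 5xCHI mt-Co1 (0.27) and mt-Nd5 (0.40) had unadjusted edgeR p below 0.05 at 0.5 h (adjusted p = 0.780), where 3.52% of features did (2.84% lower), and mt-Nd5 (0.42) at 4 h (adjusted p = 0.925), where 3.53% did (1.81% lower). At 24 h 0 members did, against 4.26% of features (2.18% lower). None was called after adjustment by edgeR or DESeq2, and the medians were 0.23, 0.18 and 0.12. mt-Nd5 had 2642, 2789 and 3773 CPM at 0.5 h and 2712, 2974 and 3754 at 4 h in 5xCHI, all above the 3 values of 4xCHI. Such a gap occurred for 4 of the 15 members at 0.5 h and 4 at 4 h, and for 8.1% and 6.65% of all features.

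The difference between the first and the later injuries was tested as such in edgeR. At 0.5 h the change after the first injury exceeded that in 3xCHI by 0.61 to 0.93 on the log2 scale (median 0.67), and 14 of 15 members had an unadjusted p below 0.05, against 3.87% of all features. The smallest adjusted p was 0.448, so 0 were called. At 4 h the median was 0.40 with 3 of 15 below 0.05 unadjusted (2.23% of features, smallest adjusted p = 0.999), and at 24 h it was 0.52 with 12 of 15 (6.44% of features, smallest adjusted p = 0.406). Against the change in 5xCHI the medians were 0.37, 0.26 and 0.22, with 0, 1 and 0 members below 0.05 unadjusted, against 2.99%, 2.28% and 1.64% of features. DESeq2 was not run on these differences. In the edgeR test for any difference between 1 to 5 injuries at 24 h, 0 members passed after adjustment (0.990), by DESeq2 also 0, and 7 of 15 had an unadjusted p below 0.05, against 3.9% of features. These were mt-Nd1, mt-Nd2, mt-Nd4, mt-Nd5, mt-Nd6, mt-Cytb and mt-Co1, with mt-Nd6 at the smallest p. Of the 7, 5 encode complex I subunits, as do 7 of all 15 tested members, and the 2 shares were not tested against each other.

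The chromosome 1 copies took 1.25% ± 0.206 of all counts (SD, n = 39), and 99.6% of the counts on the 23 annotated features that share a run of 31 bases with a member. Of the counts on a copy and its member together, the copy held a median of 40.6% for Gm28661 with mt-Co2 (37.3% to 42.4%), 45.6% for Gm10925 with mt-Atp6 (43.0% to 47.5%) and 43.5% for Gm28437 with mt-Co3 (41.4% to 45.3%). The medians were 39.1% for Gm28438 with mt-Nd3 and 38.6% for Gm10222 with mt-Nd4l. For the copies of part of a gene they were lower, 4.198% for Gm29216 with mt-Co1 and 5.51% for Gm28439 with mt-Nd4. Gm13340, the chromosome 2 copy with 37 differing bases, had a median of 176 counts, against 61160 for Gm28661, the copy of mt-Co2 without a difference. Estimated counts of mt-Co2, mt-Atp6, mt-Co3, mt-Nd3, mt-Nd4l, mt-Nd4, mt-Co1 and mt-Nd2 were not whole in nearly every sample, and those of mt-Nd1, mt-Nd5, mt-Nd6, mt-Cytb, mt-Atp8 and both rRNAs were whole. Counts of a full-length copy and its member therefore cannot be told apart as transcripts of either. The copies moved with their members over the 39 samples on the log2 scale, with correlations of 0.986 for Gm28437, 0.978 for Gm10925, 0.975 for Gm28661, 0.936 for Gm28438 and 0.926 for Gm10222, and 0.398 and 0.350 for Gm29216 and Gm28439. In 1xCHI against Sham the log2 differences of copy and member were 0.42 ± 0.10 for Gm10925 and 0.43 for mt-Atp6, 0.48 ± 0.12 for Gm28661 and 0.42 for mt-Co2, and 0.44 ± 0.13 for Gm28437 and 0.43 for mt-Co3. They were 0.47 ± 0.12 for Gm28438 and 0.50 for mt-Nd3, and 0.58 ± 0.19 for Gm10222 and 0.55 for mt-Nd4l. For the copies of part of a gene they were 0.68 ± 0.25 for Gm29216 against 0.34 for mt-Co1, and 0.47 ± 0.25 for Gm28439 against 0.39 for mt-Nd4. These differences between copy and member were not tested. Without Sham replicate 20, whose CPM of Gm29216, Gm28439 and Gm10222 was the lowest of the Sham samples, they were 0.39 for Gm29216 and 0.40 for mt-Co1, 0.18 for Gm28439 and 0.42 for mt-Nd4, and 0.29 for Gm10222 and 0.33 for mt-Nd4l. In the fit to all samples 0 of the 11 tested copies passed edgeR after adjustment. Without adjustment 8 of the 11 were higher with p below 0.05, where 10.9% of all features were. Without Sham replicate 20 it was 4 of 11, where 9.48% of all features were. In the fit to all samples DESeq2 called 3, Gm28438, Gm10925 and Gm28661, of the 24 features (0.158%) it called in all.

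**Figure D5:**
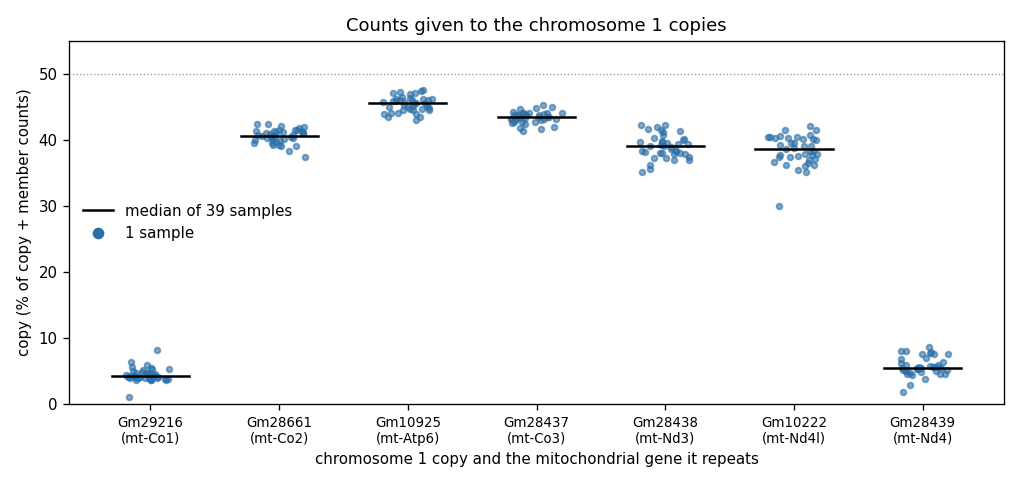
Share of the counts of a chromosome 1 copy and its member that was assigned to the copy (percent, vertical axis), for 7 pairs in 39 samples. Points are samples and the dotted line marks an even split, below which all pairs lie, from a median of 4.198% for Gm29216 to 45.6% for Gm10925.

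The nuclear-encoded partners of the members were described from lists of genes by role. In 1xCHI against Sham, 27 of 36 tested nuclear complex I subunits were higher at an unadjusted edgeR p below 0.05, 6 of 9 of complex III, 10 of 12 of complex IV and 11 of 16 of the ATP synthase, and 0 were lower. The 10.9% of all features with such a p is the background for these counts. The median log2 differences were 0.33, 0.38, 0.35 and 0.30, and no gene of any of these lists passed after adjustment by edgeR or DESeq2. Those with the smallest p were Ndufa5 (0.62 ± 0.17) in complex I, Uqcrb (0.42 ± 0.11) in complex III, Cox7b (0.34 ± 0.10) in complex IV and Usmg5 (0.45 ± 0.12) in the ATP synthase. In 5xCHI the same counts were 5 of 36, 0 of 9, 1 of 12 and 2 of 16, against 7.51% of features. In 2xCHI they were 5, 0, 2 and 1, against 2.33% of features, with medians of 0.22, 0.23, 0.26 and 0.18. In 3xCHI they were 1, 0, 1 and 0, against 2.26%. In 4xCHI they were 0, 1, 1 and 0, against 0.663%, with medians of 0.15, 0.15, 0.14 and 0.17.

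Genes that act on mitochondrial DNA and RNA were described in the same way for 1xCHI, where the background is again 10.9% of all features higher. Of 20 tested genes of mitochondrial DNA transcription and replication, 2 were higher at an unadjusted edgeR p below 0.05 and 0 lower (median log2 difference 0.13), namely Polg2, the accessory subunit of the mitochondrial DNA polymerase, at 0.47 ± 0.15, and Mterf4 at 0.17. Of 24 genes of mitochondrial RNA processing and decay, 2 were higher and 0 lower (median 0.04), namely Slirp, which binds mitochondrial mRNAs, at 0.51 ± 0.17, and Pnpt1, the mitochondrial polynucleotide phosphorylase, at 0.23. Of 13 mitochondrial translation factors, 2 were higher and 0 lower (median 0.04), with Gfm2 and Tsfm both at 0.23. Of 10 regulators of mitochondrial biogenesis, 0 were higher and 3 lower (median -0.14), where 6.33% of all features were lower. These were the coactivators Ppargc1a (-0.36 ± 0.13) and Pprc1 (-0.31 ± 0.10) and the nuclear receptor Ppard (-0.18). None of these genes passed after adjustment by edgeR or DESeq2.

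Marker lists of other cells were compared with the same samples. Summed CPM of 8 cortical neuron genes was 7012 ± 81.3 in Sham and 6578 ± 522 in 1xCHI, of 8 astrocyte genes 4563 ± 385 and 3874 ± 683, of 8 microglia genes 333 ± 15.3 and 315 ± 33.5, and of 8 oligodendrocyte genes 5950 ± 1129 and 6134 ± 1040. Endothelial genes summed to 260 and 244 CPM, hemoglobin genes to 217 and 248, and genes of other brain regions to 157 and 143. Choroid plexus genes summed to 19.7 ± 7.78 CPM in Sham and 27.5 ± 13.0 in 1xCHI, and reached 2478 CPM in a 5xCHI sample. Meningeal fibroblast genes reached 512 CPM in a 1xCHI sample, where the Sham samples held 117 to 191. In 1xCHI against Sham 0 of the 64 marker genes tested passed after adjustment by edgeR or DESeq2. Without adjustment 0 of the 64 were higher and 2 lower at an edgeR p below 0.05 (3.13%, against 6.33% of all features lower), the neuronal Gad1 (-0.29) and the astrocytic glutamate transporter Slc1a2 (-0.37). In 5xCHI against Sham 11 of the 64 were higher at such a p, where 7.51% of all features were, and 1 was lower, where 4.07% were. Those higher included 5 of 8 microglia genes, with C1qa at 1.00 ± 0.31 and C1qb at 1.03 ± 0.32, and 2 of 3 tested choroid plexus genes, with Ttr, which encodes transthyretin, at 5.09 ± 1.57. None of them passed edgeR's adjusted test (0.360 for Ttr), while DESeq2 called Ttr (log2 difference 5.09, adjusted p = 0.0325) among the 10 features (0.0657%) it called. The summed choroid plexus genes in 5xCHI ran from 6.72 to 2478 CPM with a median of 32.5 (n = 10), and the summed microglia genes from 310.4 to 966 with a median of 378. In 2xCHI, 3xCHI and 4xCHI 1 (Rbfox3), 2 (Col1a1 and Gfap) and 2 (Kl and Ttr) of the 64 were higher at an unadjusted edgeR p below 0.05. In 3xCHI 3 were lower (4.69%), Adora2a, Drd1 and Drd2, all from the genes of other brain regions, and in 2xCHI and 4xCHI 0 were. The shares of all features in these groups are those given above beside the members. Drd2 ran from 0.391 to 32.1 CPM over the 39 samples. In these groups 0 of the 64 passed after adjustment by either tool. The part of cell makeup in the level of the mitochondrial transcripts was not tested.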

How the data were processed

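The authors deposited estimated counts per gene, with sequencing, alignment (mm10 in the submitters' processing notes) and counting done by a service provider. The counting tool is not given in the sources used here, and 4.46% of values are not whole. The counts were rounded for the tests, while shares and CPM used the counts as deposited. After the filter the study describes, a feature was kept when at most 4 of the 39 samples had under 10 counts of it. This left 15224, which is not the number the study gives for its own filter. The main test was edgeR 4.0.16 (quasi-likelihood, TMM, R 4.3.3) fitted to all features and groups, with Benjamini-Hochberg adjustment over all features and a threshold of 0.05. Times were averaged for each injury number against Sham, and each time was set against the group before that injury. Shares were compared by exact two-sided permutation tests (scipy 1.17.1) over samples.

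The members and gene lists were chosen with earlier results of these data known. All protein-coding and rRNA members are named, tRNAs by their range and counts, at most 3 genes of a list with the smallest unadjusted p, and the 5 features most and least correlated with the mitochondrial share. Genes singled out beyond that, as the sequences, gaps between groups and marker genes, were chosen after their values were seen. Sequences and positions came from the GRCm38 genome with GENCODE release 21 names, and a copy was any annotated feature sharing a run of 31 bases with a member. The alternatives were DESeq2 1.42.0, other scalings, filters, covariates and sample sets, leaving out each sample, and other definitions of the share. The scripts were tested on simulated data. A further allele of the mouse line and a marker gene are not reported here.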

Additional observations from a re-analysis of the deposited data

Results flagged for a closer look

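Within groups of 4 to 10 samples, 13 values of 119 group checks lay far from the others by Dixon's criterion, and chance alone gives about 5.95. In 1xCHI at 24 h, replicate 26 was the low sample, with a mitochondrial share of 6.63% against 8.19% to 8.41% in the other 3. The same sample had 6167 CPM of mt-Nd1 against 7641 to 7821, 6585 CPM of mt-Cytb against 8271 to 8396, and 4465 CPM of mt-Co2 against 5729 to 5793. In 3xCHI at 24 h, replicate 2 was the high sample, with a share of 7.43% against 5.87% to 6.08%. It had 6254 CPM of mt-Nd4 against 4948 to 5114, 7307 CPM of mt-Cytb against 5611 to 5756, and 19074 CPM of mt-Co1 against 15575 to 15961.

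In Sham, replicate 20 had 19435 CPM of mt-Co1 against 16066 to 16516, and 138 CPM of mt-Atp8 against 470 to 520. It was also the lowest Sham sample for mt-Nd4l (142 CPM), mt-Nd3 (343 CPM) and mt-Nd6 (40.9 CPM), while its share was the highest of the Sham samples. With mt-Atp8, mt-Nd4l and mt-Nd3 these include the 3 shortest protein-coding members, and Sham replicate 20 had the largest total count of the series. In 5xCHI at 24 h, replicate 11 had 187 CPM of mt-Nd4l against 327 to 343 and 2353 CPM of mt-Nd5 against 2958 to 3036. In 3xCHI over all times, replicate 1 had 681 CPM of mt-Atp8 against 432 to 541. The cause of these values was not tested.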

How the results depend on the processing

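No paired analysis was possible because the replicate numbers are the study's sample numbers, each used once, so no groups share any. The comparisons gave 743 values under alternatives, of which 728 were counted as unchanged. For the share this meant the same direction and side of the threshold, and for counts of called members within 1.5 times. For median log2 differences it meant a move of less than 0.162, whatever the sign. The median in 4xCHI against Sham, for example, ran from -0.0465 to 0.0463 over left-out samples. DESeq2 called 6 members in 1xCHI and 8 in 1xCHI at 0.5 h, where edgeR called 0. Leaving out each sample gave 0 to 15 called members at 0.5 h after the first injury, with a median log2 difference of 0.46 to 0.74, and 0 to 9 at 4 h, the highest without replicates 27 and 36. The 1xCHI minus Sham share difference passed the adjusted exact permutation test at 1.66 points for protein-coding members alone and with the rRNAs left out (both 0.0400), at 1.71 over protein-coding and other features past the filter (0.0400), and at 2.43 with the listed nuclear copies added and, chosen after seeing the data, with all annotated copies added (both 0.04995). Leaving out each sample gave 1.85 to 2.29, and it passed without replicate 26 (2.25, 0.0420) and without replicate 36 (2.29, 0.0280). Differences turned in direction for 3xCHI with sample numbers of 19 to 40 alone (-0.160 points) and for 4xCHI over left-out samples (-0.322 to 0.119), positive without Sham replicate 20 (0.0447) or 4xCHI replicate 24 (0.119). The causes were not tested. In 1xCHI all 15 members were higher at an unadjusted p below 0.05 with sample number (median 0.44, against 9.56% of all features in that fit) or numbers of 1 to 18 against 19 to 40 (0.40, against 5.73%) as covariates. Without a filter 31 members, tRNAs included, could be fitted and 0 were called. For the tRNAs, at no more than 7 counts in a sample, this fit could hardly have called a difference. With 4 Sham samples and groups of 2 to 4 samples a time, small differences could not be detected, and sample number and group overlap only in part.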

Other observations

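The features whose log2 CPM followed the log2 mitochondrial share most closely over the 39 samples were 3 of the nuclear copies, Gm28437 (Pearson's r = 0.960), Gm10925 (0.943) and Gm28661 (0.942). They were followed by Ilkap, a protein phosphatase that binds integrin-linked kinase (0.867), and Gnas, whose best known product is the stimulatory G-protein alpha subunit (0.846). The lowest correlations were those of Tom1l2 (-0.923), Dctn1, the large subunit of the dynactin complex that works with the dynein motor (-0.922), Dnajc18 (-0.920), Copa, a coat protein of vesicles between Golgi and endoplasmic reticulum (-0.917), and Vps33a, which acts in fusion of vesicles with lysosomes (-0.917). These points share their libraries and totals, and CPM of a sample sums to a fixed total, so the values are descriptions and carry no test. The left-out sample, 3xCHI 4 h replicate 30, had a mitochondrial share of 6.77%.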
